A study of Mus musculus with 40 samples.

Results

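Gastrocnemius muscle from 5 male mice was sequenced as small RNA, first after a streptavidin pull-down of biotinylated, thiol-labelled RNA (called IP in the labels) and also as total RNA (Input). These 10 libraries, chosen by their labels, were taken from the 40 of the series, which also holds brown fat, liver and hypothalamus. Every mouse was a UCP1;UPRT animal, 8-12 weeks old and fed standard chow, that received 4-thiouracil (4TU) intraperitoneally at 50 mg/kg, 4 times every 48 h. The UPRT transgene, Tg(CAG-GFP,-Uprt), was combined with Tg(Ucp1-cre), in which the promoter of the brown fat gene Ucp1 drives Cre. IPs and inputs therefore share genotype and treatment, and the comparison holds no muscle without 4TU or without Cre. Each mouse (1, 2, 3, 8 and 9) gave both an IP and an input, and values below are listed in that order. All IPs belong to pool 2 and all inputs to pool 1 by their library names, so pool and type of library cannot be told apart.

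MicroRNAs (miRNAs) are short RNAs cut from a hairpin. One arm, the guide, is loaded into an Argonaute protein and pairs with messenger RNAs mainly through its seed, bases 2 to 8. UPRT converts 4TU into a thiolated nucleotide that cells build into new RNA in place of uridine, and biotin attached to the sulphur lets streptavidin retain that RNA. In skeletal muscle a small set of miRNAs, the myomiRs miR-1, miR-133, miR-206 and miR-499, is abundant and acts in muscle differentiation and fibre identity.

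The table has 1894 miRNA entries, of which 763 had a count in muscle and 268 passed the filter on low counts and were tested. The IPs were shallower than the inputs, with 921277, 724922, 347194, 349281 and 109941 counts in the IPs against 3750389 to 4726588 in the inputs, and 221 to 281 entries with a count against 563 to 620. The mouse 9 IP was the shallowest and stood apart: its 10 most abundant entries took 88.4% of counts, against 94.0% to 96.8% in the other IPs, and its scaling factor was 2.64 against 0.366 to 0.873. Log2 fold changes below are IP over input on the trimmed-mean scale (TMM) of edgeR's quasi-likelihood test, and a change passed where its p, adjusted by Benjamini-Hochberg, was under 0.05. On this scale the median entry sits 0.84 above its value under scaling by total count, the scale of the CPM levels printed here (counts scaled to 1e+06 per library). A small TMM change can therefore differ in sign from the CPM levels. Replicates are separate mice by the labels.

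The tested entries divided unevenly. Of 268, 228 were called (85.1%): 77 were higher in the IP (28.7%), 151 were lower (56.3%) and 40 passed in neither direction, with a median log2 fold change of -1.41, or -1.30 with entries of 0 IP counts at the bound of 3 counts over the group. The number past an unadjusted p under 0.05 was also 228. In CPM all 5 IPs lay above all 5 inputs for 48 entries (17.9%) and below them for 148 (55.2%). No IP held a count of 44 tested entries, and 34 had 1 to 3 counts over the 5 IPs. For those, the text gives the counts, a bound or a ratio with its counting interval on the TMM scale in place of the fitted change.

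**Figure D1:**
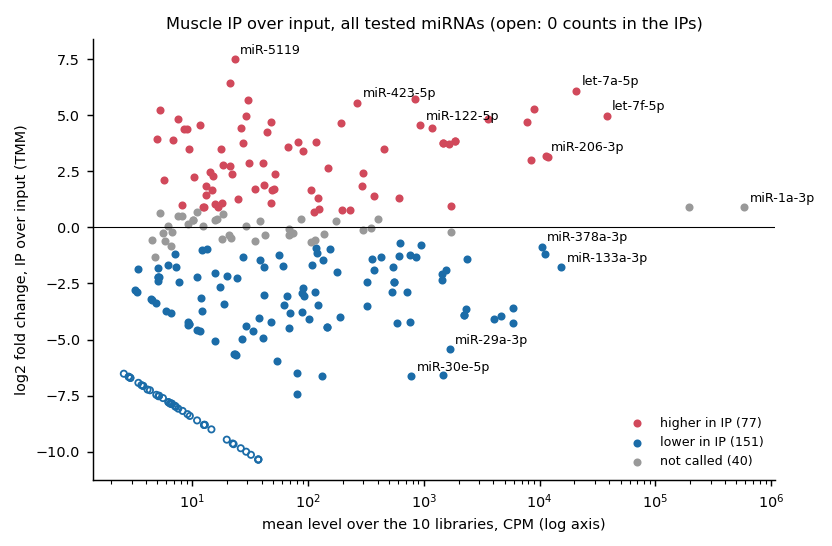
Log2 fold change of muscle IP over input (TMM, y axis) against the mean level over the 10 libraries in CPM (log x axis) for the 268 tested miRNAs; red points were higher in the IP (77), blue lower (151), grey passed in neither direction (40), and open circles had 0 counts in the IPs. The let-7 guides and miR-206-3p lie high at high abundance, and the line of open circles follows the input level because the IPs hold no count to set the size of the change.

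Sequences are shown for guides of families whose tested members moved in 1 direction, for single miRNAs that rose and for a family that split, so that shared seeds can be read beside the changes. They are RefSeq mature sequences (GRCm38.p6), 5′ to 3′, with the seed (bases 2 to 8) in capitals. A total of 231 of the 268 tested entries (86.2%) matched a mature sequence by name. The let-7 guides, a family that restrains growth and promotes differentiation, share the seed GAGGUAG:
let-7a-5p: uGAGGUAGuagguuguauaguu
let-7b-5p: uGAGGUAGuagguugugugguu
let-7c-5p: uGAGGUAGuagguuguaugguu
let-7d-5p: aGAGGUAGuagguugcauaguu
let-7e-5p: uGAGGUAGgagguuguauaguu
let-7f-5p: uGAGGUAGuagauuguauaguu
let-7g-5p: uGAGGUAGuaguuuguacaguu
let-7i-5p: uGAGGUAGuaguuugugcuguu
miR-98-5p: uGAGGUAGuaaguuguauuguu

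Other miRNAs that were higher in the IP are the myomiR miR-206, the Hox cluster miRNAs miR-196a and miR-196b, and miR-423-5p, whose hairpin lies in an intron of the splicing gene Nsrp1:
miR-206-3p: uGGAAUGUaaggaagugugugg
miR-196a-5p: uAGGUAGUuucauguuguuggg
miR-196b-5p: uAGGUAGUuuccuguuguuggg
miR-423-5p: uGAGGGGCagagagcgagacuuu

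The miR-29 family (regulators of collagen and other matrix genes), the miR-15/16 family (regulators of the cell cycle) and the miR-30 family were lower in the IP for every tested guide:
miR-29a-3p: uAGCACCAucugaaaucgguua
miR-29b-3p: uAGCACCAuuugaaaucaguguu
miR-29c-3p: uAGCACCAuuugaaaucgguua
miR-16-5p: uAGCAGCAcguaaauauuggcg
miR-195a-5p: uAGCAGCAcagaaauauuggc
miR-30a-5p: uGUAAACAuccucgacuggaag
miR-30c-5p: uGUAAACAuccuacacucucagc
miR-30e-5p: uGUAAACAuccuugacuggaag

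The miR-181 guides share 1 seed but fell on both sides of the threshold:
miR-181a-5p: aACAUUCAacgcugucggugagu
miR-181b-5p: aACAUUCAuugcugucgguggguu
miR-181c-5p: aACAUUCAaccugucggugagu
miR-181d-5p: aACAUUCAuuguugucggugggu

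All 9 let-7 guides rose in the IP, beside 28.7% higher over all tested entries. Their median log2 fold change was 4.83, with a range of 3.01 to 6.09. Together they made up 17.8%, 18.6%, 15.1%, 14.9% and 26.4% of counts in the IPs, against 1.65%, 1.59%, 1.49%, 1.55% and 1.44% in the inputs. All 9 had every IP above every input in CPM, beside 17.9% of all tested entries. The most abundant was let-7f-5p, encoded on chromosome 13 at chr13:48537889-48537910 in an exon of the lincRNA 6720427I07Rik and on the X chromosome in an intron of Huwe1. Its level was 72428, 76732, 63192, 59706 and 84818 CPM in the IPs and 4682, 4170.3, 4817, 4221 and 4312 CPM in the inputs (log2 fold change 4.98, SE 0.52, adjusted p = 4.63e-09). In CPM neither group overlapped the other, and the IPs differed among themselves by less than they differed from any input.

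The largest change of the family was that of let-7a-5p, at 6.09 (SE 0.49, adjusted p = 9.18e-11), of which a copy lies at chr13:48538239-48538260 in the same lincRNA. It held 37080.1, 35891, 33356, 28865 and 66199 CPM in the IPs and 1245, 991, 999, 1012 and 1047 CPM in the inputs. In CPM the mouse 9 IP was the highest of the IPs. The log2 CPM ratio of IP to own input was 4.90, 5.18, 5.06, 4.83 and 5.98 in the 5 mice. The TMM scale divides CPM by the scaling factor of the library. That factor was 2.64 for the mouse 9 IP and 0.366 to 0.873 for the other IPs. On that scale the mouse 9 IP was not the highest. A low member, let-7e-5p, encoded in an intron of Spaca6, reached 1329, 1058, 1527, 833 and 3447 CPM in the IPs against 56.96, 50.3, 40.02, 55.4 and 49.6 CPM in the inputs (5.72, SE 0.39, adjusted p = 5.94e-12). The order within the family by change was thus not that by input level: let-7g-5p and let-7i-5p, which with let-7f-5p were the most abundant of the family in the inputs, changed by 3.01 (SE 0.40) and 3.14 (SE 0.45).

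The passenger arms of the let-7 hairpins, which are usually degraded after processing, followed less evenly. Of the 7 tested, 6 rose and 1 fell, beside 28.7% higher and 56.3% lower over all tested entries. The other 5 of the 12 listed were too low to test. The arm let-7b-3p stood at 72.7, 78.6, 72.0, 63.0 and 164 CPM in the IPs and 5.91, 7.92, 5.29, 4.65 and 6.399 CPM in the inputs (4.69, SE 0.36, adjusted p = 4.94e-11). By contrast let-7i-3p had no count in any IP and 298 counts over the inputs, at least 5.57-fold lower at 3 counts over the group (adjusted p = 0.000108). The 2 arms of the let-7i hairpin were therefore called in opposite directions. The entries let-7a-1-3p and let-7c-2-3p share most of their reads (1.72 and 1.67).

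**Figure D2:**
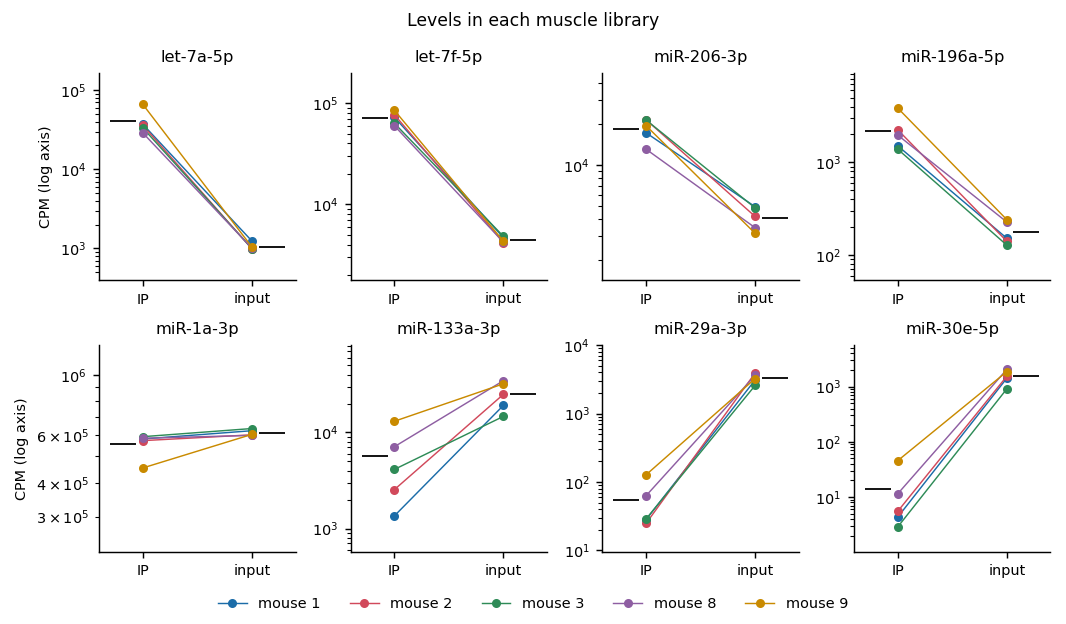
Level in CPM (log axis) of 8 miRNAs in the 5 muscle IPs (left in each panel) and the 5 inputs (right); each line joins the libraries of 1 mouse and horizontal bars are group means. The let-7 guides, miR-206-3p and miR-196a-5p lie higher in every IP, miR-1a-3p takes 453425 to 591352 CPM of the IPs and 597977 to 633751 CPM of the inputs, and miR-133a-3p, miR-29a-3p and miR-30e-5p lie lower in every IP.

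The myomiRs did not move as a group, and their calls were divided much as those of all tested entries (28.7% higher and 56.3% lower). Of 6 tested, 1 rose (miR-206-3p), 4 fell (both arms of miR-133a, miR-133b-3p and miR-499-5p) and miR-1a-3p passed in neither direction. The labelled tissue was borne out by these markers, which together took 48.6% to 61.7% of counts in the IPs and 63.1% to 65.4% in the inputs. The cardiac myomiR miR-208a-3p had 0 IP counts and 1 input count.

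miR-206, made in skeletal muscle and linked there to repair and to neuromuscular junctions, lies on chromosome 1 at chr1:20679055-20679076 in an exon of the lincRNA Gm28653. miR-206-3p stood at 17249, 21518, 21432, 13064 and 19474 CPM in the IPs and 4921, 4171, 4822, 3446 and 3134 CPM in the inputs (3.16, SE 0.46, adjusted p = 9.89e-07). Every IP was above every input, and the change ran from 2.18 to 3.48 over all alternatives. miR-1a-3p, the most abundant muscle miRNA, stood at 579882, 571842, 591352, 583539 and 453425 CPM in the IPs and 622116, 600726, 633751, 597977 and 602991 CPM in the inputs. Every IP was thus below every input in CPM, while the TMM change was 0.90 (SE 0.55, adjusted p = 0.132) and the change by total count was -0.14. Without the mouse 9 IP it became a call on the TMM scale (1.04, adjusted p = 0.00526). The entry miR-1b-5p held its reads in a ratio of 3 to 1 in every library, and both together took 77.3%, 76.2%, 78.8%, 77.8% and 60.5% of counts in the IPs.

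miR-133a, transcribed together with miR-1 and acting on muscle growth and gene splicing, went the other way. miR-133a-3p held 1356, 2544, 4127, 7109 and 13079.7 CPM in the IPs and 19175, 24972, 14709.8, 34619 and 32102 CPM in the inputs (-1.77, SE 0.35, adjusted p = 5.57e-05). All IPs were lower than all inputs, but the log2 CPM ratio within a mouse was -3.82, -3.30, -1.83, -2.28 and -1.30. The call was lost when all 40 libraries shared 1 estimate of the spread (-1.56, adjusted p = 0.119). miR-133b-3p, whose hairpin neighbours that of miR-206, fell by 2.46 (SE 0.32, adjusted p = 1.95e-07), with 25.0 to 129 CPM in the IPs and 350.5 to 679.8 CPM in the inputs. miR-499-5p, encoded within a slow myosin gene, had no IP count and 1126 input counts, at least 21-fold lower.

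The miR-196 guides, encoded in the Hox clusters and regulators of Hox genes, both rose, beside 28.7% higher over all tested entries. miR-196a-5p, with copies on chromosome 11 and in an intron of Hoxc5 on chromosome 15, stood at 1509, 2247, 1388, 1969.8 and 3857 CPM in the IPs and 152, 141, 128, 227 and 241 CPM in the inputs (4.41, SE 0.38, adjusted p = 1.72e-10). miR-196b-5p, which shares its seed and lies by Hoxa9, changed by 1.65 (SE 0.31, adjusted p = 3.48e-05). Its IPs at 83.5 to 209 CPM overlapped its inputs at 55.9 to 96.0 CPM, and by total count it did not pass (0.80, adjusted p = 0.0527).

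Among single miRNAs, miR-423-5p rose to 374, 277, 642, 355 and 919 CPM in the IPs, against 22.9, 22.7, 20.01, 12.3 and 10.9 CPM in the inputs (5.55, SE 0.40, adjusted p = 1.21e-11). The other arm of the same hairpin, miR-423-3p, changed by 0.37 (SE 0.28) and passed in neither direction. miR-320-3p stood at 241 to 573 CPM in the IPs and 20.01 to 29.1 CPM in the inputs (4.66, SE 0.33, adjusted p = 9.15e-12), and at 4.06 without mouse 3. Hairpins whose minor arm rose while the major arm did not were seen again at low levels, in entries below the 100 CPM used for naming and picked out after their values were seen. miR-193b-5p had 74 IP counts and 14 input counts (6.44, SE 0.40), whereas miR-193b-3p changed by -0.63 (SE 0.56). miR-139-3p changed by 4.44 (SE 0.37) and miR-139-5p by -0.55 (SE 0.31). The largest positive change of all tested entries was that of miR-5119, with 72 IP counts and 6 input counts (7.48, SE 0.38).

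Every tested guide of several abundant families fell, beside 56.3% lower over all tested entries. All 3 miR-29 guides fell. miR-29a-3p, on chromosome 6 at chr6:31062673-31062694, stood at 28.2, 24.8, 28.8, 63.0 and 127 CPM in the IPs and 3103, 3912, 2581, 3616 and 3245 CPM in the inputs (-5.43, SE 0.34, adjusted p = 1.19e-12). The groups lay far apart, and the highest IPs in CPM were those of mice 8 and 9. miR-29b-3p was left with 2 IP counts, against 2255 input counts, 63.2-fold lower with an exact 95% interval of 17.5 to 522. miR-29c-3p had 0 IP counts and 1564 input counts, at least 29.2-fold lower.

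All 5 tested members of the miR-15/16 family fell, and 4 of them had no count in any IP. Over all 268 tested entries 56.3% were lower and 44 had no IP count. miR-16-5p, encoded in introns of Smc4 and Dleu2, was left with 3 IP counts, against 5515 input counts. That ratio is 103-fold, with an exact 95% interval of 35.3 to 500. miR-195a-5p had 0 IP counts and 1345 input counts, at least 25.1-fold lower.

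The 5 miR-30 guides fell by unequal amounts, beside 56.3% lower over all tested entries. miR-30b-5p was left with 1 IP count, against 3379 input counts, 189-fold lower with an exact 95% interval of 34 to 7490. miR-30e-5p, in an intron of Nfyc on chromosome 4, stood at 4.34, 5.52, 2.88, 11.5 and 45.5 CPM in the IPs and 1407, 1527, 903, 2033 and 1852 CPM in the inputs (-6.64, SE 0.39, adjusted p = 5.82e-13). miR-30d-5p fell much less, with 307, 272, 1169, 1331 and 2019 CPM in the IPs and 3133, 3617, 3570.3, 4023 and 3972 CPM in the inputs (-1.40, SE 0.32, adjusted p = 0.000352; -2.08 without mouse 3). The passenger arm miR-30a-3p rose (1.31, SE 0.29, adjusted p = 0.000225), while its guide miR-30a-5p fell (-4.25, SE 0.37, adjusted p = 2.61e-10). The IPs of the passenger arm, at 355 to 1364 CPM, overlapped its inputs at 409.6 to 499 CPM.

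The miR-101 guides both fell (-6.59 for miR-101a-3p and -4.26 for miR-101b-3p), as did both miR-26 guides. All 5 miR-378 entries and all 4 entries of the miR-143 and miR-145 cluster of smooth muscle fell as well. Over all tested entries 56.3% were lower. miR-101a-3p stood at 15.2, 8.28, 5.76, 34.4 and 18.2 CPM in the IPs and 3177, 3551, 2229, 3199 and 2394 CPM in the inputs (SE 0.44, adjusted p = 4.3e-12). miR-378a-3p, made from an intron of Ppargc1b and tied to mitochondrial metabolism, fell by 0.86 (SE 0.37, adjusted p = 0.0344), with 3667 to 6294 CPM in the IPs and 14672 to 19021 CPM in the inputs. That call was lost without the mouse 3 IP (-0.85, adjusted p = 0.0658) or the mouse 8 IP (-0.84), without the input of mouse 1 (-0.61), 2 (-0.64) or 3 (-0.66) and without mouse 8 as a whole (-0.87). It was also lost with a minimum of 10 CPM (-0.70), with shared entries counted once (-0.77) and with all 40 libraries (-0.69). miR-21a-5p, named for its level in the inputs after its values were seen, fell by 4.09 (SE 0.42).

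The miR-17/92 list, which joins the miR-17/92 and miR-106b/25 clusters of growth-promoting miRNAs, split by seed group. Its 6 members of the miR-17 and miR-19 groups fell, beside 56.3% lower over all tested entries, and 3 of those 6 had no count in the IPs. The 2 members that share the miR-92 seed, miR-92a-3p (1.83, SE 0.30, adjusted p = 4.87e-06) and miR-25-3p (0.75, SE 0.26, adjusted p = 0.0107), rose on the TMM scale. miR-92a-3p stood at 139, 139, 325, 575 and 973 CPM in the IPs and 158, 176, 194, 118 and 128 CPM in the inputs. In CPM, which leave out the TMM factors, it was below its input in mice 1 and 2 and above it in mice 3, 8 and 9. The log2 CPM ratios were -0.19, -0.34, 0.74, 2.28 and 2.93. miR-25-3p lost its call by total count (0.24), median-of-ratios scaling (RLE, 0.26) and DESeq2 (0.26), without the mouse 1 IP (0.53, adjusted p = 0.0722) and without mouse 1 (0.57) or mouse 3 (0.40), and was -0.048 without a filter.

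In CPM, the same order of mice, in which mice 8 and 9 have the higher ratios, was seen for other miRNAs near the middle of the scale. These CPM ratios leave out the TMM scaling factors. miR-100-5p, which passed in neither direction (-0.21) but was called lower by RLE (-0.71), DESeq2 (-0.71) and without a filter (-1.01, adjusted p = 0.00293), had log2 CPM ratios of -2.34, -2.44, -1.23, 0.20 and 0.61, and miR-128-3p had -2.72, -3.30, -1.55, -0.77 and 0.39. miR-125b-5p had -1.07, -0.59, -0.05, 0.67 and 2.13 and a TMM change of 0.96 (SE 0.27, adjusted p = 0.00216) that did not pass by total count (0.70, adjusted p = 0.209), RLE (0.54), DESeq2 (0.54), without a filter (0.23) or without mouse 3 (0.67, adjusted p = 0.0678). IP depth in the same order of mice was 921277, 724922, 347194, 349281 and 109941 counts. The scaling factors, by which CPM are divided on the TMM scale, were 0.366, 0.489, 0.682, 0.873 and 2.64 in these IPs. In the inputs they were 1.19, 1.44, 1.11, 1.41 and 1.33. The part of depth and of scaling in these ratios was not tested. miR-125a-5p rose above every input in all IPs, with 1132, 1061, 2296, 1769 and 8950.3 CPM in the IPs and 309.6, 368, 301, 181 and 222 CPM in the inputs (3.70, SE 0.33, adjusted p = 3.5e-10).

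Of the miR-181 guides printed above, miR-181a-5p fell (-1.90, SE 0.29, adjusted p = 1.7e-06) and miR-181c-5p fell to 0 counts, against 316 in the inputs. miR-181b-5p passed in the other direction (0.77, SE 0.26, adjusted p = 0.00907), with IPs at 91.2 to 528 CPM overlapping inputs at 131 to 202 CPM. It did not pass by total count (0.30), RLE (0.25) or DESeq2 (0.25) or without mouse 3 (0.33, adjusted p = 0.289), and was -0.039 without a filter. miR-181d-5p had a change of 0.05 (SE 0.38) that turned negative by total count (-0.96).

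**Figure D3:**
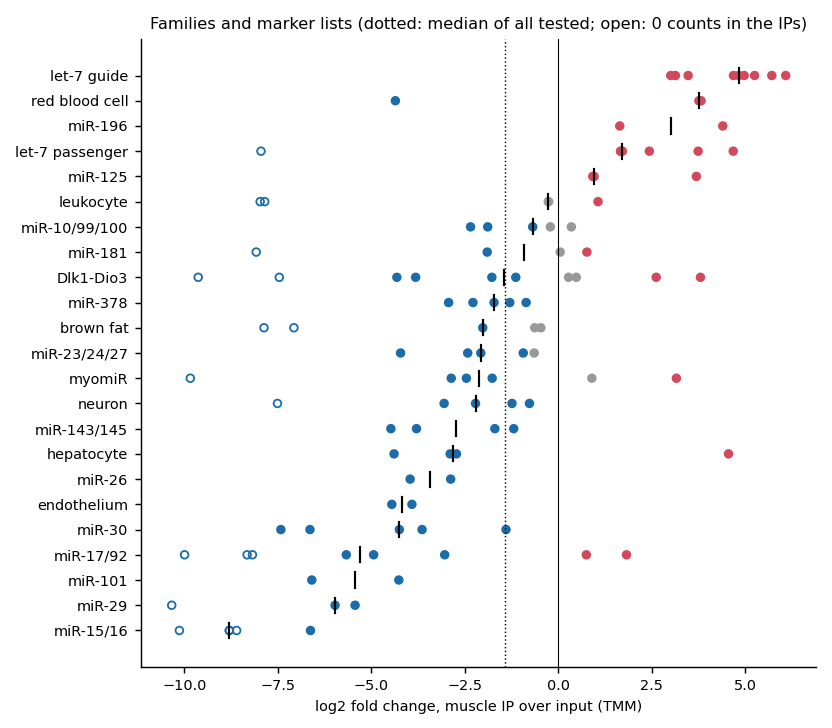
Log2 fold change of muscle IP over input (TMM) for the tested members of 23 families and marker lists, with red points higher in the IP, blue lower, grey passing in neither direction and open circles at 0 counts in the IPs; short bars are list medians and the dotted line is the median of all tested (-1.41). The let-7 guides lie at 3.01 to 6.09, whereas all tested miR-29, miR-15/16 and miR-30 guides lie below 0.

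Markers of other cell types were read from fixed lists. The brown fat list, the tissue in which Cre is driven, had 0 members higher and 3 lower of 5 tested, beside 28.7% higher and 56.3% lower over all tested entries. Its summed level was 3.26 to 57.3 CPM in the IPs and 63.7 to 118 CPM in the inputs. Of its 3 lower members, miR-203-3p kept 8 IP counts (-2.02, SE 0.47). The other lower members, miR-182-5p and miR-455-5p, had no count in the IPs, against 156 and 278 in the inputs. miR-193a-3p and miR-96-5p, too low to test, had 0 IP counts against 59 and 17. The IPs held 2452615 counts in all and the inputs 20969897, so 0 against so few input counts sets only a low bound on a fall. Of the other members too low to test, miR-183-5p had 6 IP counts (mean 2.55 CPM, inputs 3.89 CPM). miR-455-3p had 5 (mean 3.46 CPM, inputs 5.98 CPM). miR-193b-3p averaged 5.001 ± 7.74 CPM in the IPs and 6.62 ± 1.09 CPM in the inputs (SD, n = 5 each) and passed in neither direction (-0.63), though it was called lower by total count (-1.60, adjusted p = 0.0359) and without a filter (-1.44). miR-365-3p averaged 15.1 ± 14.02 CPM in the IPs and 27.9 ± 13.1 CPM in the inputs (SD, n = 5 each; -0.46), and was called lower without a filter (-1.30) and without mouse 3 (-1.40, adjusted p = 0.0398).

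The hepatocyte list had 1 member higher, miR-122-5p, and 3 lower of 4 tested, beside 28.7% higher and 56.3% lower over all tested entries. Its summed level was 381 to 4099 CPM in the IPs and 1345 to 2299 CPM in the inputs. miR-122-5p, the dominant miRNA of hepatocytes, stood at 3981, 316, 397, 3106 and 682 CPM in the IPs and 494, 61.6, 52.7, 198 and 41.1 CPM in the inputs (4.56, SE 0.85, adjusted p = 3.2e-05). Every IP was above the input of its own mouse, but the mouse 1 input was above the IPs of mice 2 and 3. The change was 3.09 without the mouse 1 IP, 5.67 without the mouse 1 input and 3.88 without mouse 3. The liver miRNAs miR-192-5p and miR-148a-3p, by contrast, fell (-2.72 and -2.89). So did miR-194-5p, with 3 IP counts against 1178 input counts (22-fold lower, exact 95% interval 7.52 to 107).

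On the red blood cell list, miR-486a-5p and miR-486b-5p rose (3.77 and 3.83) and miR-451a fell, with 1 IP count against 381 input counts (21.4-fold lower, exact 95% interval 3.81 to 846); that count was in the mouse 1 IP. Both miR-486 entries come from 1 locus in Ank1, a gene of muscle as well as of red cells, and share their reads. The list thus held 2 higher and 1 lower of 3 tested, beside 28.7% higher and 56.3% lower over all tested entries. Summed, it stood at 2944 to 14762 CPM in the IPs and 326 to 965 CPM in the inputs. miR-144-3p and miR-144-5p, like miR-451a made in red cells, had 0 counts in the IPs.

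The endothelial miR-126a-3p and miR-126a-5p both fell (-3.91 and -4.45), beside 56.3% lower over all tested entries. Their list stood at 71.7 to 500.3 CPM in the IPs and 3645 to 5536 CPM in the inputs. Of the leukocyte list 1 rose and 2 fell of 5 tested, beside 28.7% higher and 56.3% lower over all tested entries. The list stood at 26.1 to 264 CPM in the IPs and 99.8 to 224 CPM in the inputs. The rise, that of miR-150-5p (1.07, SE 0.35, adjusted p = 0.00667), was lost without the mouse 3 IP (0.65, adjusted p = 0.0731) and without mouse 3 (0.23), by RLE (0.56), DESeq2 (0.58) and total count (0.53), and without a filter (0.26). miR-142a-3p and miR-142a-5p had no count in the IPs. All 5 tested neuronal miRNAs fell, beside 56.3% lower over all tested entries. Their list summed to 360.0 to 2174 CPM in the IPs and 2428 to 3090.1 CPM in the inputs. The smallest of these falls, that of miR-128-3p (-0.77, SE 0.30, adjusted p = 0.0201), was lost by total count (-1.02, adjusted p = 0.0979), with all 40 libraries (-0.55, adjusted p = 0.21), without the input of any 1 mouse (-0.57 to -0.39, adjusted p 0.0978 to 0.266) and without mouse 1 (-0.73, adjusted p = 0.0501) or mouse 2 (-0.64). The part of other cell types in the changes was not tested.

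The imprinted Dlk1-Dio3 cluster, a long array of miRNAs expressed from the maternal chromosome, held changes of both signs. Of 10 tested, 2 rose, 6 fell and 2 passed in neither direction, beside 28.7% higher and 56.3% lower over all tested entries. miR-382-5p stood at 127, 172, 138, 123 and 164 CPM in the IPs and 18.9, 25.0, 24.1, 15.2 and 17.9 CPM in the inputs (3.81, SE 0.39, adjusted p = 3.39e-09). miR-541-5p rose as well (2.62, SE 0.33). miR-127-3p fell, with 89.0, 92.4, 156, 186 and 400.2 CPM in the IPs and 827, 1064, 1132, 678 and 763 CPM in the inputs (-1.77, SE 0.29, adjusted p = 4.59e-06).

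Base content was compared with the change because 4TU enters RNA in place of uridine. Over the 231 tested miRNAs with a sequence, the correlation of the log2 fold change with the number of uridines was 0.0791 and that with percent GC was 0.354. These are descriptions across miRNAs that share libraries, and seeds within a family. The number of adenines, added after the data were seen, gave -0.428, guanines 0.295, cytosines 0.0515 and length 0.00226. In all, 12 such features were correlated, 2 of them planned, and bases were also grouped at 2 end positions, so the adenine value is the largest of a set. The other 6, base counts in the last 6 bases and in the seed, lay between -0.232 and 0.268. miRNAs with 0 to 2 adenines had a median change of 1.04 (n = 25, with 14 higher and 7 lower). Those with 7 or 8 had -4.17 (n = 42, with 1 higher and 34 lower), or -2.53 with entries of 0 IP counts at their bound. Over all 268 tested entries 28.7% were higher and 56.3% lower. The classes were chosen after the data were seen. With 4 or 5 guanines the median was -3.50 (n = 95; -2.34 at the bound) and with 8 or more 2.86 (n = 39).

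Restricted to the 159 miRNAs with more than 3 counts in the IPs, the correlations were -0.416 for adenines, 0.32 for guanines, 0.281 for percent GC and 0.0816 for uridines. A planned restriction to levels of at least 100 CPM was void, because 69 of 89 such miRNAs (77.5%) had a sequence, under the 80% needed. Of 58 pairs with 1 seed and unequal adenines, the member with fewer adenines had the higher change in 28: in 10 of 28 pairs of let-7 guides, and in 18 of 30 pairs with other seeds. Between 2 arms of a hairpin it had in 26 of 38. These pairs include members with 0 to 3 IP counts. With more than 3 IP counts in both members it had in 18 of 43 pairs with 1 seed and 13 of 20 pairs of arms. Over the miRNAs tested in the other tissues, the adenine correlation was -0.437 in brown fat (n = 266), -0.512 in liver (n = 168) and -0.414 in hypothalamus (n = 238). In the same order of tissues, the 2 planned features gave 0.401, 0.456 and 0.432 (percent GC) and -0.0135, 0.0252 and -0.0506 (uridines).

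**Figure D4:**
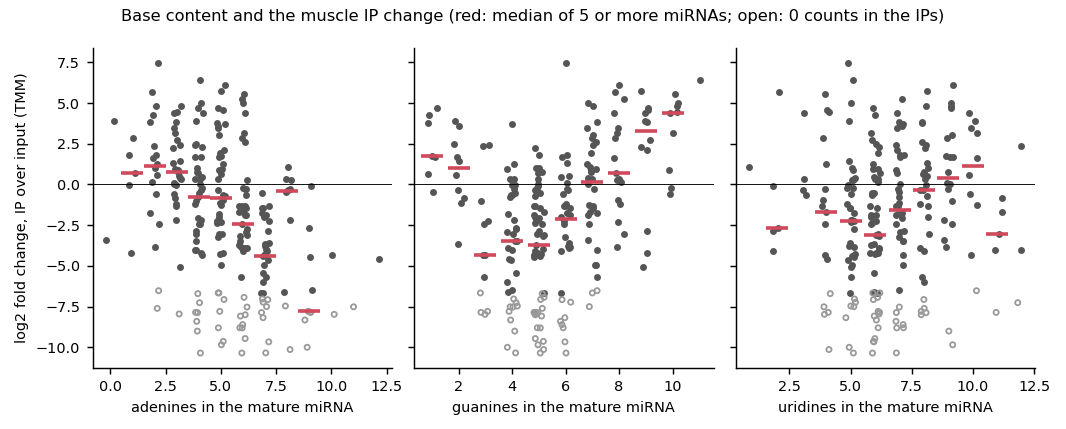
Log2 fold change of muscle IP over input (TMM) against the number of adenines, guanines and uridines in the mature miRNA for the 231 tested miRNAs with a sequence; points are spread sideways for legibility, red bars are medians of at least 5 miRNAs and open circles have 0 counts in the IPs. Changes run lower towards many adenines (r = -0.428), while the uridine panel has r = 0.0791.

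The change in muscle was then set against the same change in the other tissues, whose libraries are separate but partly come from the same mice (2 shared with brown fat, 2 with liver and 3 with hypothalamus) and from the same pools. Across miRNAs tested in both, Pearson's r was 0.892 with brown fat (n = 252), 0.926 with liver (n = 186) and 0.88 with hypothalamus (n = 194). Of 180 miRNAs called in both muscle and brown fat, 67 were higher in both, 111 lower in both and 2 lower in muscle but higher in brown fat. Those 2, named after their values were seen, were miR-378a-3p and miR-129-5p. With liver 131 were called in both and with hypothalamus 136, and no signs were opposite.

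Tests of the difference of the change called 27 of 324 miRNAs higher (8.33%) and 41 lower (12.7%) in muscle than in brown fat. Against liver 7 of 255 were higher (2.75%) and 1 lower (0.392%), and against hypothalamus 1 of 408 was higher (0.245%) and 55 were lower (13.5%). The hypothalamus and liver counts moved with the scaling and with single libraries: against hypothalamus they were 0 and 4 by RLE and 0 and 2 by total count, which shift the median difference by 0.95 and 1.25. By edgeR against liver, 0 were called without the mouse 1 IP (19 higher and 26 lower at an unadjusted p under 0.05), 0 without the mouse 2 IP (22 and 28) and 16 higher without the mouse 9 IP.

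Against brown fat the let-7 guides let-7e-5p and let-7a-5p changed more in muscle, by 2.74 (SE 0.40, adjusted p = 4.02e-05) and 2.06 (SE 0.42, adjusted p = 0.0015). let-7a-5p averaged 40278 CPM in muscle IPs and 1059 CPM in muscle inputs, and 60365 CPM in brown fat IPs and 6408 CPM in brown fat inputs, so its IP level was not higher in muscle. Between whole tissues, fewer cells of a type and less RNA per cell cannot be told apart. miR-30e-5p fell more in muscle, by -3.82 (SE 0.56, adjusted p = 4.02e-05). It averaged 13.9 CPM in muscle IPs and 1544 CPM in muscle inputs, and 1069 CPM in brown fat IPs and 13578 CPM in brown fat inputs. miR-378a-3p differed by -1.91 (SE 0.41, adjusted p = 0.00205).

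Against liver let-7e-5p also changed more in muscle (2.29, SE 0.49, adjusted p = 0.00432), and did not pass without the IP of mouse 1 (1.80, adjusted p = 0.0643), 2 (1.85) or 3 (1.92). The muscle miRNA miR-206-3p was not called different: it differed by 0.50 (SE 0.69) from brown fat, -0.29 (SE 0.67) from liver and 2.50 (SE 1.48) from hypothalamus. Its own change was 3.16 in muscle, 2.82 in brown fat, 3.84 in liver and -1.04 in hypothalamus. Against brown fat, miR-1a-3p (-0.16, SE 0.74), miR-133a-3p (0.39, SE 0.68) and miR-133b-3p (0.57, SE 0.64) were not called different either. The own change of miR-1a-3p was 0.90 in muscle, 1.28 in brown fat, 2.32 in liver and -4.09 (SE 1.54) in hypothalamus. That of miR-133a-3p was -1.77, -1.74, -3.51 and -6.71 (SE 1.997) in the same order. miR-499-5p, with no muscle IP count, changed by -1.98 in brown fat.

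**Figure D5:**
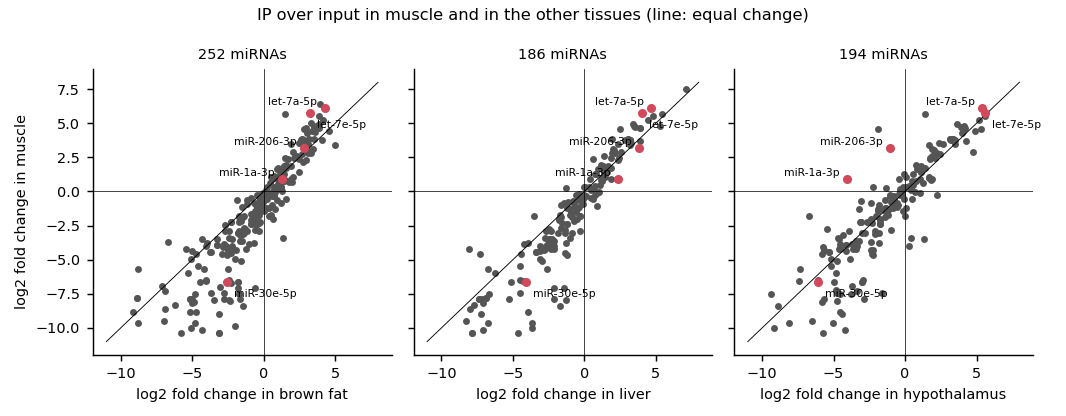
Log2 fold change of IP over input (TMM) in muscle (y axis) against that in brown fat (252 miRNAs), liver (186) and hypothalamus (194) on the x axes; the diagonal marks equal change and named miRNAs are red. Most points lie along the diagonal (r = 0.892, 0.926 and 0.88), and miR-30e-5p lies at -6.64 in muscle in each panel.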

How the data were processed

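Small RNA was sequenced from muscle IPs (5) and inputs (5) of 5 mice. Per the submitters' processing notes, the authors used fastp, STAR and featureCounts with build mm10; for versions, strand and reads with several positions, the sources used here give nothing. The deposited table holds expected counts (18.9% of values above 0 are whole), which were rounded for the tests (library totals changed by at most 0.0333%). Copies of a sequence and entries on opposite strands can share reads: 23 pairs with at least 400 counts correlated above 0.995. Precision is limited by IP depth, 109941 to 921277 counts. Reads carry no molecular identifiers, so bounds (3 counts over the group) and exact 95% intervals cover counting error only.

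IP and input were compared in R 4.3.3 with edgeR 4.0.16 (quasi-likelihood test, filterByExpr by group, TMM, two-sided). Differences between tissues were tested as interactions over 20 libraries. By the labels' mouse numbers, the IP and input of a muscle replicate share an animal. In brown fat, replicate 5 is mouse 8 for the input and mouse 10 for the IP. The correlation of the deviations from group means of muscle IP and own input in mice 1, 2, 3, 8 and 9 was 0.0919, 0.0987, 0.119, 0.253 and -0.187. For mice 2 and 9 the IP correlated more with the input of another mouse (0.123 and 0.218). Alternatives were RLE and total count scaling, no filter, a minimum of 10 CPM, DESeq2 1.42.0, limma-voom 3.58.1, a replicate block, shared entries once, all 40 libraries, and leaving out each library or mouse. Members, lists and tests were chosen with earlier results of these data known. Named are the 10 largest changes in each direction averaging at least 100 CPM, the 5 most abundant entries of each type, up to 4 members of each list and, between tissues, the 3 largest in each direction; not all are printed and exceptions are marked. Sequences are from RefSeq, and gene annotation is from GENCODE. Scripts were tested on simulated data.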

Additional observations from a re-analysis of the deposited data

Results flagged for a closer look

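Of 180 groups of 5 libraries checked for the miRNAs named by rule, 22 had 1 library standing apart from the others by Dixon's ratio, where chance gives about 1 in 20. In most of them the mouse 9 IP, the shallowest library with 109941 counts, was the one apart. It was the highest of the IPs for let-7a-5p (66199 CPM, against 37080.1 in the next), let-7e-5p (3447 CPM), let-7d-5p (30562 CPM) and the passenger arms let-7d-3p (1665 CPM), let-7b-3p (164 CPM), let-7a-1-3p (100.1 CPM) and let-7c-2-3p (91.0 CPM). So it was for miR-125a-5p (8950.3 CPM), miR-125b-5p (5994 CPM), miR-486a-5p (6567 CPM), miR-486b-5p (8195 CPM), miR-25-3p (609 CPM), miR-541-5p (373 CPM), miR-26b-5p (118 CPM), miR-9-5p (63.7 CPM) and miR-30e-5p (45.5 CPM). It was the lowest for miR-1a-3p (453425 CPM, against 571842 in the next) and for miR-1b-5p (151145 CPM), which shares its reads. These are CPM levels. On the TMM scale they are divided by the scaling factor, 2.64 for the mouse 9 IP and 0.366 to 0.873 for the other IPs, so the order of the IPs can differ there. The part of depth and of scaling in these values was not tested.

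Of the other groups, miR-451a had its only IP count in mouse 1 (1.09 CPM, against 0 in the other IPs). Among the inputs, let-7a-5p was highest in mouse 1 (1245 CPM), and let-7a-1-3p and let-7c-2-3p, which share reads, were highest in mouse 9 (40.8 and 40.5 CPM).

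The IP change differed between muscle and another tissue, by the test of the difference, for 13 named results. Muscle minus brown fat was 2.74 for let-7e-5p, 2.06 for let-7a-5p and 1.99 for let-7b-3p, and -3.82 for miR-30e-5p, -4.42 for miR-30b-5p and -6.96 for miR-182-5p. The muscle IPs held 0 counts of miR-182-5p and 1 of miR-30b-5p, so these 2 sizes are fitted values and no bounds. The difference for miR-182-5p did not pass by RLE (-6.07, adjusted p = 0.0534) or without the muscle IP of mouse 1, 2 or 3 (adjusted p 0.0509 to 0.0524). Muscle minus liver was 2.29 for let-7e-5p, 2.07 for miR-379-5p, 1.91 for let-7b-5p and -2.03 for miR-30e-5p. Each of these 4 was lost without the muscle IP of mouse 1, 2 or 3. The difference for miR-379-5p was also lost by RLE (1.67, adjusted p = 0.0747), without a filter (1.82, adjusted p = 0.0524), without the muscle IP of mouse 8 (adjusted p = 0.0618) and without any 1 muscle input (1.92 to 2.09, adjusted p 0.0557 to 0.108). That for let-7b-5p was lost without a filter (1.62, adjusted p = 0.149) and without the muscle input of mouse 2, 3, 8 or 9 (adjusted p 0.0557 to 0.09). That for miR-30e-5p was lost by total count (-1.62, adjusted p = 0.188), with the replicate block and without the muscle input of mouse 1, 2, 8 or 9 (adjusted p 0.0557 to 0.09). Muscle minus hypothalamus was -7.92 for miR-330-3p, -7.89 for miR-129b-3p and -7.58 for miR-668-3p, all with 0 counts in the muscle IPs and again no bounds. None of these 3 passed by RLE (adjusted p 0.119 to 0.129) or total count (0.102 to 0.236).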

How the results depend on the processing

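The limits are IP depth, a pool that cannot be told apart from the type of library, and scaling. Against TMM, RLE moved the median change by -0.53 and total count by -0.84. For IP against input, no entry called in 1 direction was called in the other under any alternative. Higher and lower calls, 77 and 151, were 245 lower without a filter (763 entries tested) and 96 lower with a minimum of 10 CPM (197 tested), and other alternatives stayed within 1.5 times. Leaving out 1 library or mouse gave 65 to 85 higher and 101 to 177 lower, the lower ends with 200 to 205 entries tested. The replicate block by mouse gave 76 and 151 and changed no call of a named miRNA in this comparison.

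Signs turned mostly for miRNAs that passed in neither direction, but also, without a filter, for miR-25-3p and miR-181b-5p, which had been called higher. miR-181d-5p (0.05) was -0.50 by RLE and by DESeq2, -0.96 by total count, -0.77 without a filter, -0.053 by limma-voom and -0.37 to 0.34 with a library or mouse left out. miR-379-5p (0.28) was -0.26 by RLE, -0.79 by total count, -0.54 without a filter, -0.27 by DESeq2, -0.037 by limma-voom and -0.070 to 0.64. miR-1a-3p and miR-1b-5p (0.90 each) were -0.14 by total count. Without a filter, miR-25-3p (0.75) was -0.048 and miR-181b-5p (0.77) was -0.039. With a library or mouse left out, miR-100-5p (-0.21) ran from -0.60 to 0.17 and miR-146a-5p (-0.26) from -0.92 to 0.044. Both were called lower by RLE (adjusted p = 0.0213 and 0.0268), DESeq2 (0.0149 and 0.0218) and without a filter (-1.01 and -1.05), and miR-146a-5p also without mouse 3 (-0.92, adjusted p = 0.0222). The cause was not tested.

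Between tissues, higher and lower calls moved more. Against brown fat (27 and 41) 8 were higher without a filter, and 12 to 25 with a library left out. Against liver (7 and 1) they were 4 and 5 by RLE, 21 and 0 by total count, 3 and 2 without a filter, 10 and 0 with the replicate block, and 0 to 16 and 0 to 4 with a library left out. miR-30e-5p then did not pass with the block (-1.86, adjusted p = 0.0961), by total count (adjusted p = 0.188) or without most single muscle libraries. Against hypothalamus (1 and 55) they were 0 and 4 by RLE, 0 and 2 by total count, 2 and 35 without a filter, 3 and 40 with the replicate block, and 0 to 1 and 35 to 49 with a library left out. By edgeR, 21 were higher at an unadjusted p under 0.05 by RLE and 23 by total count there. The correlation with percent GC was 0.281 with more than 3 IP counts, an alternative added after seeing the data, as was leaving out whole mice.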
